A study of Taeniopygia guttata with 10 samples.

Results

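HES1 was examined as 1 gene of the 18618 genes in the RNA-seq count files, together with the stretch of chromosome 9 around it. The gene is the Ensembl identifier ENSTGUG00000009134, which the study's tables call HES1, its text HES1-4 and its drawings of the locus HES4 and it spans 1671 bp of chromosome 9. The locus was taken as the gene with 50 kb on each side, from 14625139 to 14726809 on the assembly taeGut3.2.4, so that the gene starts and ends 50 kb inside these limits. It held 58 of the 719917 Methylation Peaks, the regions in which the study counted captured methylated fragments, and 377 of the 1074648 CpGs read by reduced representation bisulfite sequencing (RRBS). In the RefSeq annotation of another zebra finch assembly, bTaeGut7.mat, HES1 also lies on chromosome 9, between LOC116808714 and OPA1, whereas HES4 lies on chromosome 21.

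HES1 encodes a basic helix-loop-helix protein that binds DNA and represses transcription, largely by recruiting corepressors of the Groucho/TLE family. It is a classical target of Notch signalling: a ligand of the Delta or Jagged family on one cell binds a Notch receptor on its neighbour, the receptor is cleaved, and its intracellular part activates HES and HEY genes together with RBPJ. In the developing vertebrate nervous system, HES1 keeps progenitor cells undifferentiated by repressing proneural genes.

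The 2 zebra finch cell lines came from spontaneous, non-neuronal tumours, the diploid male line G266 and the tetraploid female line ZFTMA. Each line received either 5-aza-2'-deoxycytidine (AZA, a cytidine analogue that blocks DNA methyltransferases once built into DNA) at 1 μM for 72 hours, renewed every 24 hours, or the solvent dimethyl sulfoxide (DMSO) on the same schedule. RNA-seq and MethylCap-seq, which captures methylated DNA with a methyl-binding domain, were done on these 4 conditions, and the DNA and RNA of a condition came from the same harvest of cells. Untreated ZFTMA was profiled by MethylCap-seq and RRBS. Each condition was thus 1 library per assay, and the 2 replicates of a treatment were the 2 cell lines, which also differ in sex and ploidy. The tests below draw on the spread between these libraries, pooled over genes or peaks, and not on that between cultures of one line. Their p-values thus do not measure how much a single gene or peak varied between the 4 conditions' libraries.

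The RNA libraries held between 22306354 and 35075936 counts on genes. The MethylCap-seq libraries held between 2549052 and 10358829 fragments on Methylation Peaks, and the share of reads on peaks was 84.4% and 91.2% with DMSO, 48.4% and 57.4% with AZA, and 92.1% in untreated ZFTMA. In the DMSO and AZA comparison, fragments were scaled by the reads outside the peaks, as in the study. The peaks had been defined on the summed coverage of both DMSO libraries, so every peak had coverage with DMSO by construction. The coverage threshold had been chosen by means of the RRBS data.

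HES1 RNA was scarce with DMSO and rose after AZA in both cell lines. G266 had 8 HES1 counts with DMSO and 68 with AZA. ZFTMA had 7 counts with DMSO and 67 with AZA. After scaling to a common depth, the normalized counts were 9.40 and 71.5 in G266 and 5.25 and 72.3 in ZFTMA, so both AZA libraries lay far above both DMSO libraries. In bulk RNA, more cells with HES1 RNA and more of it per cell cannot be told apart. The group means were 7.33 ± 2.94 with DMSO and 71.9 ± 0.570 with AZA (SD, n = 2). By edgeR's quasi-likelihood test, blocked on line, the fitted log2 change was 3.35 with a standard error of 0.36 (Benjamini-Hochberg adjusted p = 3.01e-19 over all genes). The same direction was called for 27.8% of all genes, and by fold change HES1 was at rank 751 of the 5183 genes called higher. At the same FDR of 0.1, the study called fewer genes higher. Of the 13434 genes that reached 10 counts in 2 or more libraries, 34.7% were called higher, the median log2 fold change was 0.07, and HES1 was at rank 478. The adjusted p depended on the model and on the genes kept. It was 7.84e-10 from the blocked edgeR fit on these 13434 genes alone. From edgeR without the block it was 7.43e-04, and from DESeq2 it was 3.76e-05.

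**Figure D1:**
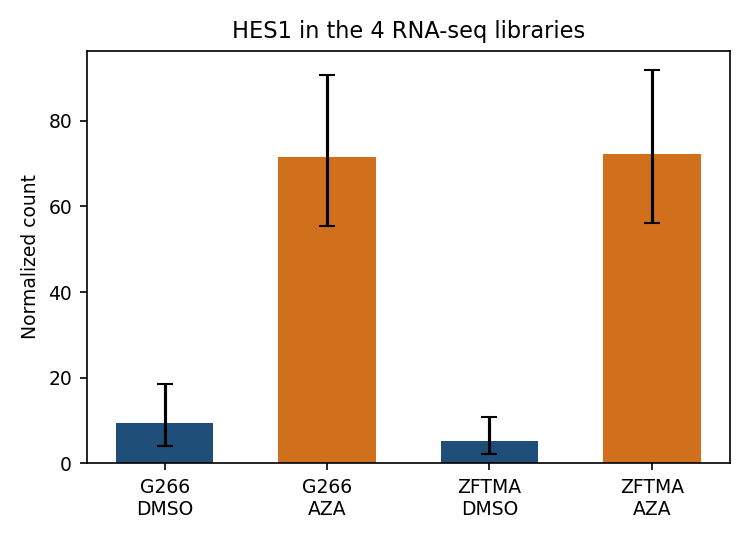
Normalized HES1 count in each of the 4 RNA-seq libraries (bars), with exact 95% Poisson intervals that cover counting error only. Both AZA libraries, at 71.5 and 72.3, lie above both DMSO libraries, at 9.40 and 5.25, and their intervals do not overlap.

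The increase was 7.60-fold in G266 (exact 95% interval 3.65 to 18.3) and 13.8-fold in ZFTMA (6.33 to 35.6). These intervals cover counting error only, and they overlap. The 8 and 7 counts of the DMSO libraries carried exact Poisson intervals of 3.45 to 15.8 and 2.81 to 14.4. With 1 library per line and treatment, the difference between the lines in the size of the increase was not tested. The study also measured HES1 RNA by qPCR in independent samples, where it was significantly higher with AZA in both lines.

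The level of HES1 RNA was not called different between the cell lines. With AZA, the ratio of ZFTMA to G266 was 1.01 (exact 95% interval 0.711 to 1.44). With DMSO it was 0.558 (0.172 to 1.76), an interval that spans lower and higher levels in ZFTMA. The edgeR coefficient of the line was -0.11 on the log2 scale (standard error 0.31, adjusted p = 1). Over all genes, 3.29% were called higher and 2.93% lower in ZFTMA.

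Of the 5 named genes whose RNA followed the 4 libraries most closely like HES1, 3 are described here, IL7R, Q4JHT7_TAEGU and CSGALNACT1. Likeness was the Euclidean distance between the log2(normalized count + 1) values of the 4 libraries, each gene centred on its own mean, among 1816 genes with a symbol and a mean of at least 10 normalized counts. The distance was 0.131 for IL7R, a subunit of the interleukin-7 receptor. It was 0.238 for Q4JHT7_TAEGU, which is a protein entry name and not a gene symbol, and 0.275 for CSGALNACT1, an enzyme of chondroitin sulfate synthesis. The median distance of all candidates was 2.96. IL7R had 6 and 58 counts in G266 and 5 and 54 in ZFTMA with DMSO and AZA, close to the counts of HES1 itself. CSGALNACT1 had 10 and 99 counts in G266 and 12 and 94 in ZFTMA. A symbol was known only for genes that the study's tables list as changed or as having a demethylated promoter, so this pool is not a random draw of genes.

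Of the 77 symbols on a list of Notch pathway genes, 15 could be paired with an identifier, HES1 included. No Notch receptor was among them. The other 14 genes are also there because the study listed them on these same libraries, so their counts describe them and are no independent evidence of a direction. Of these 14, 4 were called higher, 2 lower and 8 neither way, beside 27.8% of all genes called higher and 16.4% called lower. The study called far fewer genes lower at the same FDR. The log2 fold changes of the 14 were also summarized. The median was 0.07, as was that of the 13434 better-covered genes.

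Among the ligands, JAG1, which encodes Jagged-1, rose from 50.5 to 407 normalized counts in G266 and from 58.5 to 377 in ZFTMA. Its log2 fold change of 2.82 (standard error 0.16, edgeR adjusted p = 8.84e-64) passed the test. DLL1, a Delta ligand, had 10 and 21 counts in G266 and 2 and 5 in ZFTMA, which did not pass the test (edgeR adjusted p = 0.184). In the fit on genes with at least 10 counts in 2 or more libraries, DLL1 was called higher. DLL1 RNA was called lower in ZFTMA than in G266 (log2 fold change -2.31, edgeR adjusted p = 0.0217). DLK2, a Delta-like protein without the usual receptor-binding motif of Delta ligands, had a log2 fold change of -0.17 and was not called. With depth scaled by the trimmed mean of M-values, DLK2 was called lower.

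NEURL1B and MIB1 encode enzymes that attach ubiquitin to Notch ligands. NEURL1B had 1 count with DMSO and 14 with AZA in G266, and 2 and 15 in ZFTMA, and was called higher (log2 fold change 3.40, standard error 0.84). MIB1 was abundant at 3698 and 3748 normalized counts in G266 and 3730 and 3695 in ZFTMA, and its log2 fold change was 0.0026 (standard error 0.08). APH1A, a subunit of the γ-secretase that cleaves the receptor, had a log2 fold change of -0.15 and was not called. XXYLT1, a xylosyltransferase that modifies Notch, fell by 0.33 on the log2 scale (standard error 0.10, edgeR adjusted p = 0.00351) and also lies on chromosome 9, 8 genes away from HES1 in the RefSeq order. Without the block, XXYLT1 was called only in 1 of the 4 fits that each left out a library, the one without ZFTMA AZA.

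DTX3L, a Deltex-family ubiquitin ligase, rose from 729 to 2156 normalized counts in G266 and from 629 to 1295 in ZFTMA. Its relative DTX4 had a log2 fold change of -0.06 and was not called. TLE4, a Groucho-type corepressor that HES proteins recruit, rose from 120 to 171 normalized counts in G266 and from 76.5 to 170 in ZFTMA (log2 fold change 0.84). TLE4 was not called by DESeq2, nor by edgeR without the block when the ZFTMA DMSO library was left out. HEYL, a relative of HES1, had 0 counts in all 4 libraries. BHLHE40, another basic helix-loop-helix repressor, had log2 ratios of 0.35 in G266 and -0.06 in ZFTMA and was not called. With total gene counts as library size, BHLHE40 was called higher.

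The list ends with proteins that HES factors are known to repress or to dimerize with. ATOH7, a proneural factor, had at most 4 counts in any library and was not called. ID4, a helix-loop-helix protein without a DNA-binding region, fell from 1417 to 561 normalized counts in G266 and from 1539 to 641 in ZFTMA, a log2 fold change of -1.30 (standard error 0.10, edgeR adjusted p = 3.48e-40). Between the lines, DLK2 was called higher in ZFTMA, and DTX3L was called lower there, as was DLL1. Of all genes, 3.29% were called higher and 2.93% lower in ZFTMA.

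**Figure D2:**
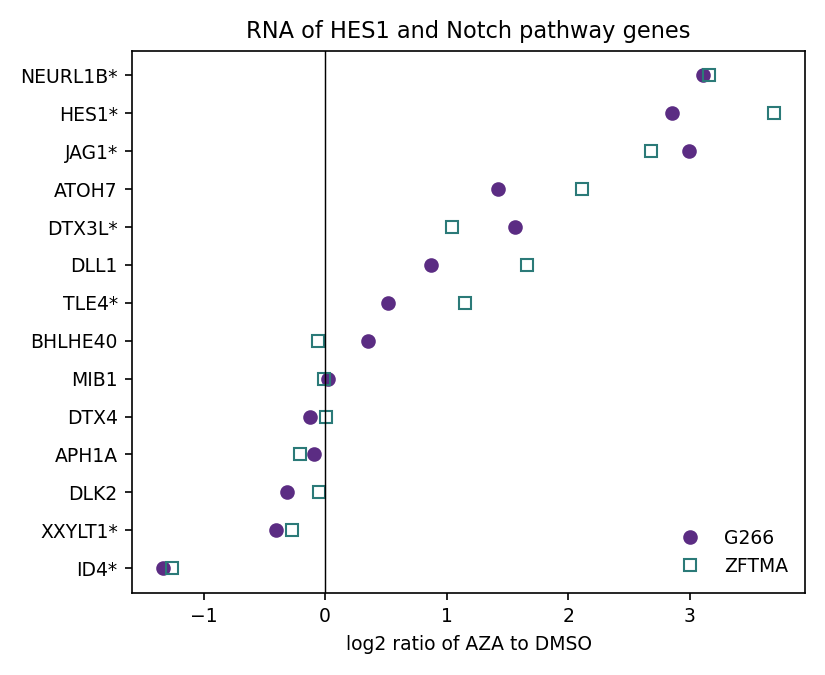
Log2 ratio of AZA to DMSO in RNA of HES1 and 13 Notch pathway genes with counts, in G266 (filled circles) and ZFTMA (open squares), with 0.5 counts added. Asterisks mark genes called at an FDR of 0.1. HES1, at 2.85 and 3.69, lies with NEURL1B and JAG1 at the upper end, and ID4, at -1.34 and -1.26, at the lower end.

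The Methylation Peaks of the locus covered 51.4% of its bases, with a median width of 585.5 bp and a range from 2 to 4551 bp. Summed over the 58 peaks, G266 had 3241 fragments with DMSO and 715 with AZA. ZFTMA had 4117 with DMSO, 920 with AZA and 5315 untreated. The AZA libraries held 22.1% and 22.3% of the DMSO fragments of their line at this locus, against 24.6% and 31.7% over all peaks. Scaled by the reads outside peaks, the locus sum was lower after AZA by a log2 ratio of -2.68 in G266 and -3.44 in ZFTMA, and the sum over all peaks by -2.53 and -2.93.

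By the edgeR fit, 50 of the 58 peaks were called lower after AZA and 0 higher. Over all peaks, 54.6% were called lower and 0.00167% higher. Far fewer peaks were called lower by the study at the same FDR, also with edgeR, pairing by line and reads outside peaks. The numbers of peaks called here thus hold for the present fit and do not reproduce those of the study. Among peaks with at least 10 fragments in the 4 libraries, 49 of the 52 at the locus were called lower, against a background of 76.9%. The share called over all peaks was thus higher where peaks had more fragments. Beyond this limit, the locus and the background were not matched for fragments per peak, so the shares alone do not set the locus apart. The median log2 fold change of these 52 peaks was -3.11, with a range from -4.42 to -0.46, and that of all 494249 such peaks was -2.62.

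The number of calls depended on the scaling. With all non-duplicate reads as library size, 21 peaks of the locus and 7.37% of all peaks were called lower, and the median was -1.17 at the locus and -0.70 over all peaks. With TMM (trimmed mean of M-values), which sets the average peak near no change, none (0) was called in either direction, beside 0.0206% of all peaks called lower. At an unadjusted p under 0.05, 12 were lower and 1 was higher, against 5.2% and 1.8% of all peaks. The TMM medians were -0.74 at the locus and -0.24 over all peaks. In raw counts, 52 of the 58 peaks had fewer fragments with AZA than with DMSO in both lines. Over all peaks, the raw AZA fragments were 24.6% of the DMSO fragments in G266 and 31.7% in ZFTMA. A raw fall alone therefore does not set this locus apart, and its share over all peaks was not counted.

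**Figure D3:**
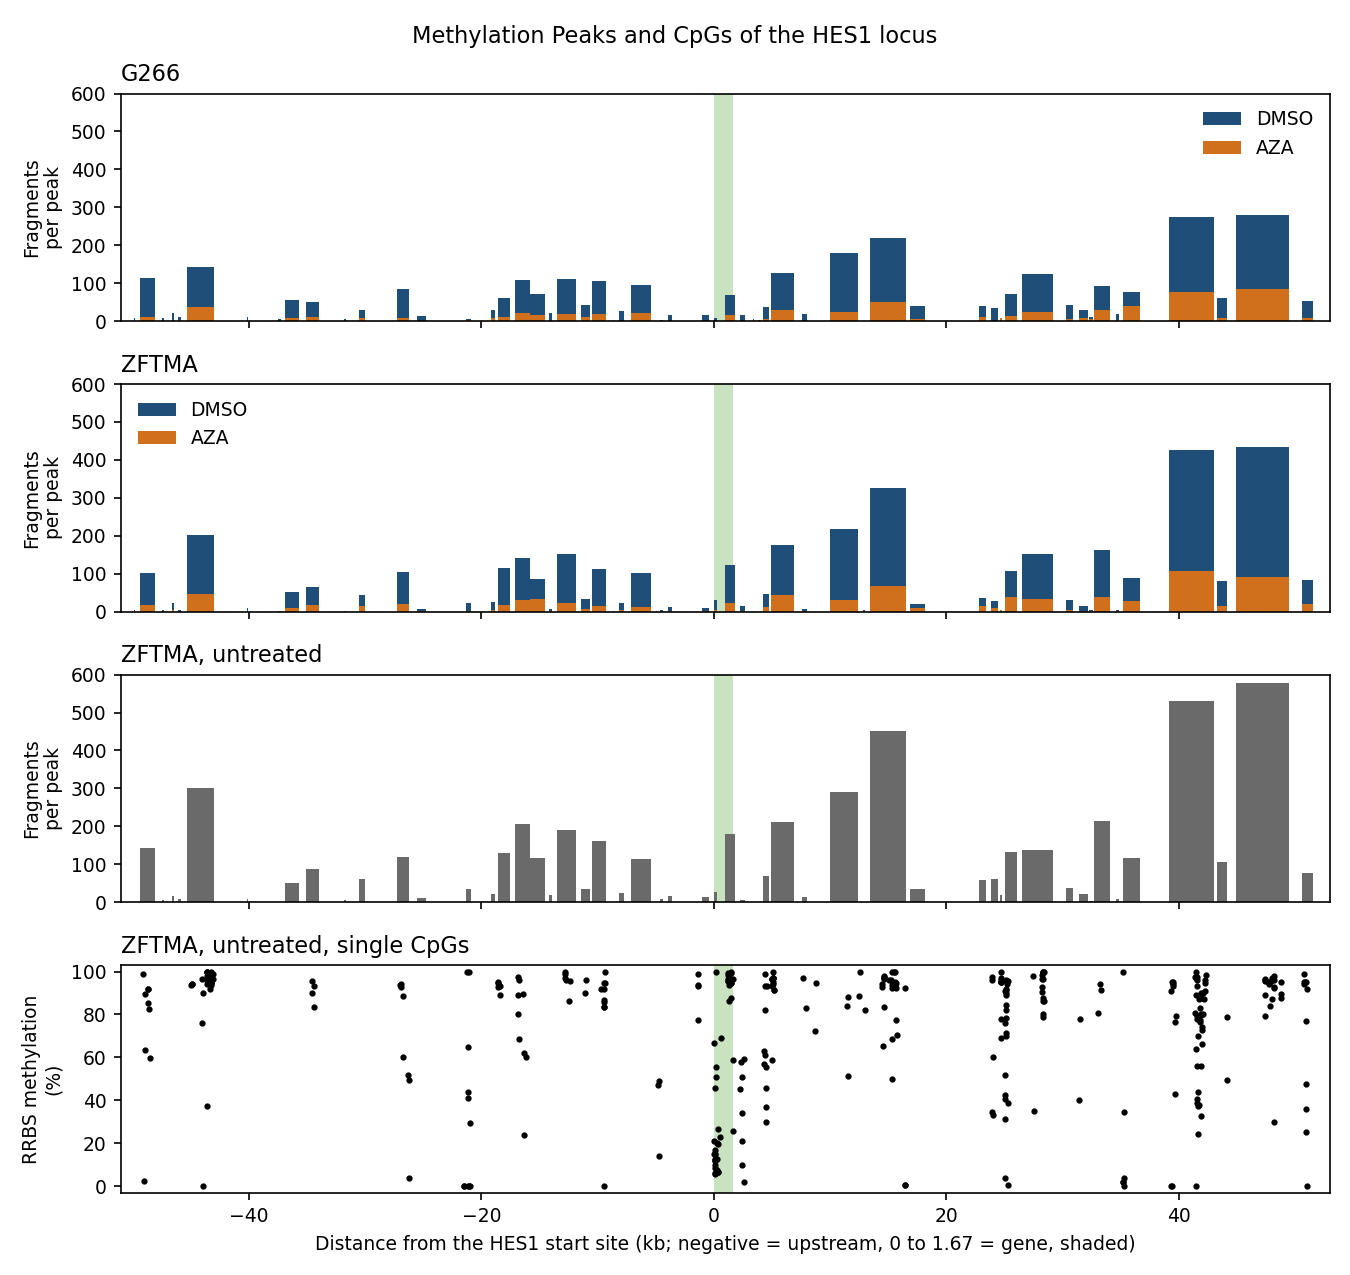
Fragments per Methylation Peak along the locus in G266 and ZFTMA with DMSO and AZA (AZA bars drawn in front) and in untreated ZFTMA, and RRBS methylation (%) of 377 single CpGs in untreated ZFTMA. The x axis is the distance in kb from the start site, negative upstream, the gene is shaded, and bars are as wide as the peaks except for the narrowest, which were widened to be visible. AZA bars are lower than DMSO bars at nearly every peak, and the CpGs at the start site are mostly low.

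The start site was taken at the gene end of higher coordinate, where the study draws the promoter, since the files give no strand. The promoter window ran from 2000 bp outside to 500 bp inside this end, from 14676309 to 14678809. The window held 2 Methylation Peaks, and 1 more overlapped the other end of the gene.

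The peak at the far end of the gene, from 14675006 to 14675849, had the most fragments of the 3. G266 had 70 fragments with DMSO and 17 with AZA. ZFTMA had 123 with DMSO, 23 with AZA and 181 untreated. The AZA libraries were below the DMSO libraries in both lines, and the log2 fold change was -3.15 (standard error 0.59, edgeR adjusted p = 6.98e-07). Relative to reads outside peaks, 17.1% of the DMSO level was left in G266 (exact 95% interval 9.45% to 29.4%) and 7.71% in ZFTMA (4.71% to 12.1%). It was the only one of the 3 still called with all non-duplicate reads as library size (log2 fold change -1.16, edgeR adjusted p = 0.0113). With TMM it was not called (log2 fold change -0.72, edgeR adjusted p = 0.920). The intervals of the level left do not cover this dependence on the scaling. The level left, here and at the peaks below, counts captured fragments and is not a degree of methylation. The study also read single CpGs in promoters by bisulfite pyrosequencing of independent samples. The HES1 promoter changed significantly in both lines, but the study describes the changes seen by pyrosequencing as only modest. Among possible reasons, it proposes that capture may overestimate the absolute loss of methylation.

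The peak at the start site itself, from 14676534 to 14676805, was small in G266 and larger in ZFTMA. G266 had 8 and 2 fragments, and ZFTMA had 30 and 5, with 26 in the untreated library. Per kb of peak this was 29.4 fragments in G266 and 110 in ZFTMA with DMSO. The part of the DMSO level left after AZA was 17.6% in G266 (exact 95% interval 1.82% to 88.4%) and 6.88% in ZFTMA (2.08% to 17.9%). The interval of G266 spans nearly the whole range from loss of the signal to little change. The fit over both lines gave a log2 fold change of -3.45 (standard error 0.60, edgeR adjusted p = 9.13e-08). It was -1.34 with all non-duplicate reads as library size and -1.04 with TMM, and was called with neither.

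The peak upstream, from 14677239 to 14677833, went from 16 fragments to 1 in G266 and from 11 to 1 in ZFTMA. Untreated ZFTMA had 15. Here the lines had similar counts. Of the scaled DMSO fragments, 4.41% were left in G266 (exact 95% interval 0.105% to 28.4%) and 3.75% in ZFTMA (0.0871% to 25.8%). Its log2 fold change of -4.42 (standard error 0.79, edgeR adjusted p = 2.17e-07) was the lowest of the 52 better-covered peaks. It was -2.54 with all non-duplicate reads as library size and -2.11 with TMM, and was called with neither. No CpG in this peak was read by RRBS. Upstream of it, 2564 bp held no Methylation Peak up to 14680398, although 4 CpGs in this gap were read by RRBS at 77.3% to 98.9%.

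**Figure D4:**
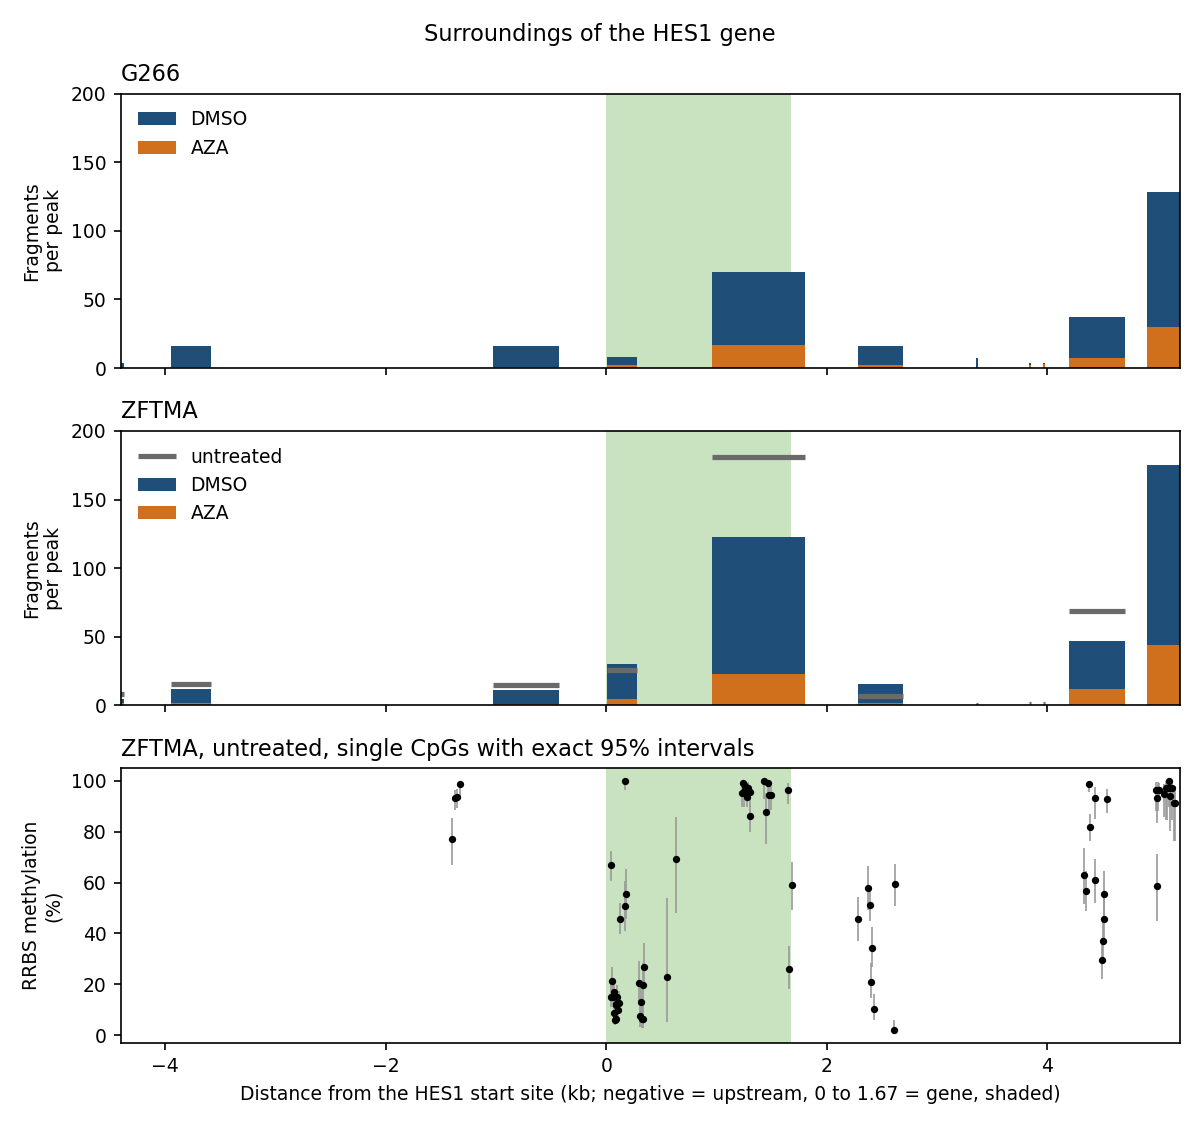
Fragments per Methylation Peak (bars, AZA in front of DMSO; grey lines, untreated) and RRBS methylation (%) with exact 95% intervals near the gene, against the distance from the start site in kb (gene shaded). The 3 peaks at the gene and promoter have with DMSO 70, 8 and 16 fragments in G266, against 123, 30 and 11 in ZFTMA, and the CpGs near the start site (median 15.1%) lie below those in the rest of the gene (median 95.4%).

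RRBS of untreated ZFTMA showed a lower mean methylation near the start site than in the rest of the gene. In the 500 bp of the gene next to the start site, 24 CpGs were read between 14676471 and 14676772, with a mean methylation degree of 23.8%, a median of 15.1% and 106 to 531 reads each. Of these 24 CpGs, 19 were below 30%. In the rest of the gene, 18 CpGs had a mean of 86.0% and a median of 95.4%. The lowest CpG at the start site, at 14676734, had 5.86% (exact 95% interval 4.02% to 8.22%, 529 reads), and the CpG at 14675343, farther into the gene, had 99.1% (95.1% to 100.0%, 112 reads). The parts overlapped at single CpGs, from 5.86% to 100% at the start site and from 23.1% to 100% in the rest of the gene. RRBS was 1 library, and CpGs of one restriction fragment share their reads, so these values are not replicates.

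Single CpGs stood apart from their neighbours. At the start site, the CpG at 14676644 was methylated in 106 of 106 reads, whereas the CpG at 14676640 was methylated in 54 of 106 reads (50.9%). The CpG nearest to the gene end, at 14676771, had 66.8%. At the far end of the gene, the CpG at 14675157 had 25.9% (exact 95% interval 18.1% to 35.0%), and the next one, at 14675166, had 96.4%. Between the 2 peaks of the gene and over 500 bp from the start site, 2 CpGs with 26 and 13 reads gave 69.2% and 23.1%. Outside the gene but inside the promoter window, the 4 CpGs from 14678140 on had a mean of 90.8%.

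Capture and RRBS gave the 2 peaks of the gene the same order in untreated ZFTMA. The far-end peak, with a mean RRBS degree of 89.1% over 17 CpGs, had 214 fragments per kb in untreated ZFTMA. The start-site peak, with 27.7% over 17 CpGs, had 95.6 fragments per kb there, close to the 110 with DMSO. Fragments were thus captured on the start-site peak in untreated ZFTMA, while 12 of its 17 CpGs were below 30% in RRBS of the same line. Over the 25 peaks of the locus with at least 3 RRBS CpGs, which share 1 library per assay and differ in width and base composition, the rank correlation of mean degree and fragments per kb was 0.25, a weak relation.

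Over the whole locus, the mean RRBS degree was 73.9% and the median 90% (377 CpGs, 12 to 531 reads, median 108), against a mean of 51.3% and a median of 56.6% over all CpGs read. At the locus 13.8% of CpGs were below 30%, against 36.4% of all. Of the 52 such CpGs of the locus, 19 were the ones at the start site. The flanks over 10 kb away had means of 75.9% on the downstream side (178 CpGs) and 81.0% on the upstream side (99 CpGs). Within 10 kb, the means were 71.4% downstream (41 CpGs) and 71.0% upstream of the promoter window (13 CpGs). The start-site part of the gene, at 23.8%, had the lowest mean of these segments.

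Other peaks of low RRBS degree lay away from the gene. A peak 35.9 kb downstream, from 14640137 to 14641640, had a mean of 23.8% over 6 CpGs and kept more fragments after AZA than most, falling from 78 to 40 in G266 and from 89 to 29 in ZFTMA (log2 fold change -2.16). The peak just past the far end of the gene, from 14674119 to 14674531, had a mean of 35.2% over 8 CpGs, and its fragments were 16 and 2 in both lines. The peak from 14697725 to 14698161, upstream, had a mean of 42.2% over 9 CpGs. Its fragments went from 6 to 3 in G266 and from 23 to 2 in ZFTMA. These 3 peaks were picked after their values were seen. CpGs inside peaks had a median of 91.1% (355 CpGs) and those outside 37.1% (22 CpGs, 7 of them at the start site). The threshold that defines peaks had been chosen on these RRBS data.

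The peaks with the most fragments lay in the flanks, and on each side the 3 with most DMSO fragments were picked. Downstream, the peak from 14627302 to 14631852, 4551 bp wide, went from 281 fragments to 84 in G266 and from 433 to 91 in ZFTMA. The next ones were 14633752 to 14637662, with 274 and 76 in G266 and 427 and 107 in ZFTMA, and 14660298 to 14663363, with 219 and 51 and 326 and 69. Their log2 fold changes were -2.89, -2.82 and -3.07. In all 3, the AZA libraries were below the DMSO libraries in both lines, and ZFTMA had more fragments than G266 with either treatment.

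Upstream, the peak from 14719858 to 14722175 went from 143 fragments to 37 in G266 and from 201 to 47 in ZFTMA, a log2 fold change of -2.92. The peak from 14688646 to 14690279 had 112 and 19 in G266 and 152 and 23 in ZFTMA (-3.54), and that from 14692645 to 14693934 had 108 and 21 in G266 and 143 and 31 in ZFTMA (-3.18). All 6 peaks were called lower, beside 76.9% of all peaks with at least 10 fragments. As they were picked by their DMSO fragments, the choice itself favoured lower counts with AZA. The 3 peaks of the gene and promoter, at -3.15, -3.45 and -4.42, lay within the range of the other peaks of the locus or at its lower end.

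The 8 peaks that were not called had few fragments. The 4 peaks only 2 bp wide, that is a single CpG, were all among them, with at most 7 fragments in a library. The uncalled peak with the most fragments, from 14651982 to 14652206, went from 3 fragments to 8 in G266 and from 6 to 4 in ZFTMA.

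The log2 ratio of AZA to DMSO was lower in ZFTMA than in G266 at 38 of the 52 better-covered peaks, or 73.1%, against 52.0% of all such peaks. The median ratio was -2.77 in G266 and -3.41 in ZFTMA at the locus, and -2.45 and -2.62 over all such peaks. At the peak upstream of the start site the lines were close, at -3.96 and -4.22. At the start-site peak they were -2.27 and -3.75, and at the far end of the gene -2.51 and -3.67. The scaling by reads outside peaks is set separately in each line, and with 1 library per line and treatment the difference was not tested.

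**Figure D5:**
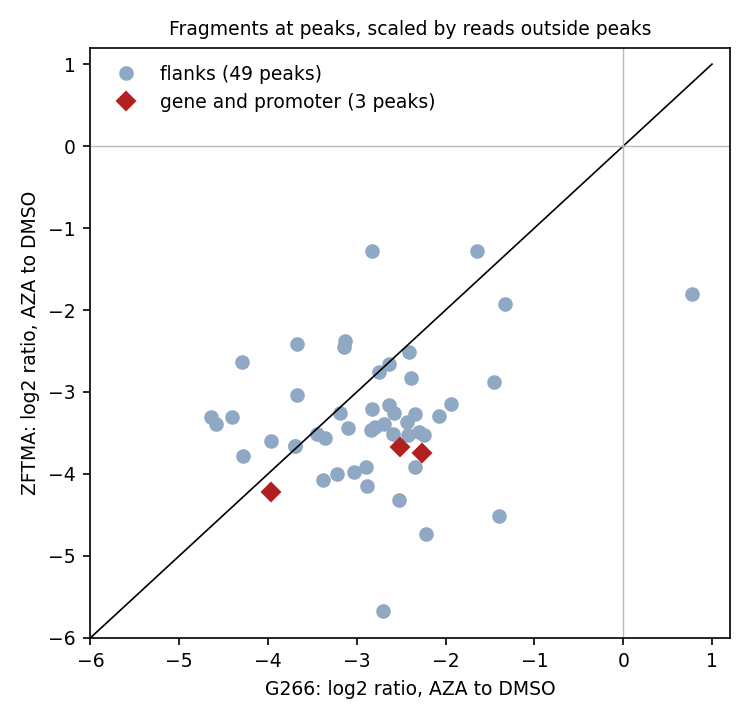
Log2 ratio of AZA to DMSO fragments at 52 Methylation Peaks with at least 10 fragments, G266 on the x axis and ZFTMA on the y axis, each scaled by reads outside peaks with 0.5 fragments added; the line marks equal ratios. Of the 52 peaks, 38 lie below the line, and the 3 peaks of the gene and promoter (diamonds) are among them.

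Between the cell lines, no peak of the locus passed the test. With TMM and the treatment as covariate, edgeR called 0 of the 58 peaks, and 0.0% of all peaks in either direction, while 11 peaks of the locus were higher in ZFTMA and 0 lower at an unadjusted p under 0.05, against 4.67% and 2.19% of all peaks. The median log2 difference of the 52 better-covered peaks was 0.62, towards ZFTMA, and that of all such peaks was -0.08. The largest departure among peaks with at least 10 fragments was the start-site peak, with a log2 difference of 2.301 (standard error 0.58, edgeR adjusted p = 0.265). With DMSO alone and relative to all fragments on peaks, ZFTMA had 4.53 times the G266 level at this peak (exact 95% interval 2.03 to 11.4), 2.12 times at the far end of the gene (1.57 to 2.89) and 0.831 times at the upstream peak (0.349 to 1.91). The far-end peak was at a log2 difference of 1.08 (adjusted p = 0.690). When reads outside peaks were used as library size instead, 6 peaks of the locus were called higher in ZFTMA, the start-site peak among them (log2 difference 2.79, edgeR adjusted p = 0.00773). Of all peaks, 3.68% were called higher in ZFTMA with this scaling, and the median of all better-covered peaks moved to 0.41. The copy number of this region in the 2 lines was not measured here.

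Untreated ZFTMA had more fragments at the locus than ZFTMA with DMSO. Relative to reads outside peaks, the ratio was 1.22 (exact 95% interval 1.17 to 1.27, counting error only). Relative to all fragments on peaks, which takes out a rise in the sum over all peaks, it was 1.08. Over the 52 better-covered peaks, the untreated library exceeded the DMSO library by a median log2 ratio of 0.33, against 0.00065 over all such peaks. These medians weigh peaks with few and with many fragments alike. At the 3 peaks of the gene and promoter it was 0.47 at the far end, -0.28 at the start site and 0.35 upstream. With 1 library each, there is no test of this difference.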

How the data were processed

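RNA-seq and MethylCap-seq counts were used as deposited by the authors. Per the study's methods, STAR (version 2.3.0) placed the RNA reads, which were counted per Ensembl release 72 gene; whether strand was used is not given in the sources used here. For MethylCap-seq, Bowtie2 (version 2.1.0) was used and non-duplicate fragments were counted per Methylation Peak. RRBS was aligned by Bismark (version 0.9.0), and the authors deposited the coverage count and the methylation percent of CpGs with at least 10 reads. Tools and versions are those of the submitters' processing notes.

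Counts were tested with edgeR (v4.0.16, quasi-likelihood, in R 4.3.3), with DESeq2 (v1.42.0) as alternative, an FDR of 0.1 and Benjamini-Hochberg adjustment over all genes or peaks. RNA depth was estimated after the PoissonSeq principle, and MethylCap-seq library sizes were reads outside peaks (832972 to 2714187), from the study's mapping summary minus fragments on peaks. The summary calls its unit reads. Only read pairs were kept and its 5 totals are odd, so they were taken as pairs, which is not stated; a fragment across peaks may count in each. The cell line was the block: libraries of one line pair because they are the same line, and their deviations correlated at r = 0.27 over 13434 genes. Standard errors were derived from the edgeR tests, as the absolute log2 fold change over the square root of the F statistic. They are not a spread between lines. Ratios within a line had 0.5 counts added. Intervals (Poisson, binomial; scipy 1.17.1) are at 95% and cover counting error only.

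The members and lists were chosen with earlier results of these data known. HES1 had been picked by the study on these libraries and on Exon Arrays (microarrays) of independent samples. Named were the Notch list members with an identifier, the 5 genes most like HES1 (2 of them are not reported here), all peaks at the gene or promoter window, and the 3 with most DMSO fragments on each flank. Symbols (2187 genes) came from the study's supplementary tables; 0 identifiers matched the RefSeq table. The edgeR tests were also run on simulated data. Few features were changed there and the MethylCap-seq scaling was known, so that run cannot judge the scaling used here.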

Additional observations from a re-analysis of the deposited data

Results flagged for a closer look

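At 3 Methylation Peaks of the locus, the log2 ratios of AZA to DMSO had opposite signs in G266 and ZFTMA. The peak from 14651982 to 14652206 had a log2 ratio of AZA to DMSO of 0.78 in G266 (3 and 8 fragments) and -1.81 in ZFTMA (6 and 4). The peak from 14672848 to 14672849 had -0.87 in G266 (4 and 3 fragments) and 0.31 in ZFTMA (0 and 1). The peak from 14673455 to 14673456 had -4.41 in G266 (7 and 0 fragments) and 0.31 in ZFTMA (0 and 1). With 1 library per line and treatment the difference between the lines was not tested, and none of the 3 peaks was called in the fit over both lines.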

How the results depend on the processing

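The increase of HES1 RNA kept its direction and its call with TMM, total gene counts, a filter on low counts and DESeq2. From one line alone, the log2 ratio was 2.85 to 3.69. Leaving out each of the 4 libraries in turn, without the block, gave log2 fold changes of 2.92 to 3.75, the lone library of a treatment being assumed to vary like the others. Without the cell line as block, HES1 had a log2 fold change of 3.35 (edgeR adjusted p = 7.43e-04). In that fit, 5 Notch genes were called higher, HES1 included, and 49 locus peaks and 2 promoter peaks were called lower. The shares of all genes and of all peaks called in it were not counted, so these counts do not set the members apart. The block changed no call of HES1 or of the 3 peaks at the gene. The paired and the unpaired p of HES1 differ widely.

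The 50 locus peaks called lower became 21 with all non-duplicate reads and 0 with TMM, beside 54.6%, 7.37% and 0.0206% of all peaks. Within 10 kb of the gene, 13 of the 18 peaks were called lower. The share was 54.6% of all peaks and 76.9% of those with at least 10 fragments. The 2 promoter peaks became 0 with all non-duplicate reads and 0 with TMM. The 0 peaks called between the lines became 6 with reads outside peaks. The ratio of untreated to DMSO fragments moved from 1.22 to 1.08 when scaled by all counts on peaks. The mean RRBS degree moved from 73.9% to 70.3% with at least 100 reads, to 70.9% weighted by reads and to 63.3% within 10 kb. Counts of calls could not be given for one line alone, where no test is possible. Depth limits the DMSO level of HES1 (8 and 7 counts) and the upstream peak after AZA (1 fragment per library).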
